A study of Rattus norvegicus with 3 samples.

Results

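The genes described are 51 members of the interferon system, given as a list of names. They comprise the receptors and their kinases, the transcription factors, the nucleic acid sensors and the genes that interferon induces. Members were the rows of each deposited table whose gene name equalled a listed name exactly. Of the 51 names, 50 were matched, each to a single row, out of 30957 rows per rat. Xaf1 had no row of that exact spelling. The samples were motor cortex of 3 male Sprague-Dawley rats, numbered 12, 24-4 and 33, with 1 RNA sequencing library each. All 3 rats had cerebral ischemia, a loss of blood supply, followed by reperfusion, its restoration, and all received electroacupuncture at the acupoint GB20 (Fengchi). The labels give a time of 8 weeks without its starting point, and they do not give the method or the side of the ischemia. No sham, untreated or unstimulated rats were analysed here, so the data give levels and their spread between treated animals and hold no comparison with untreated ones. Nothing in the labels ties the rats to a litter or a batch, and p-values measure only the spread between these libraries.

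Interferons are secreted proteins that put neighbouring cells into an antiviral state. Type I interferons bind the receptor made of Ifnar1 and Ifnar2, and interferon gamma binds Ifngr1 and Ifngr2. The Janus kinases Jak1, Jak2 and Tyk2 on these receptors phosphorylate STAT proteins. STAT2 and IRF9 are parts of the complex ISGF3, which binds the interferon-stimulated response element (ISRE) in target promoters, whereas the gamma-activated site (GAS) is the element of the interferon gamma response. In brain, microglia, astrocytes, endothelium and neurons can all respond, and interferon-induced genes are known to be switched on in reactive glia after injury.

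Levels are in FPKM, a fragment count scaled by gene length and by library size. From the low values of short genes, depths were estimated at 15340000, 17230000 and 13000000 fragments in rats 12, 24-4 and 33. At these depths an FPKM of 1 corresponds, in a 1 kb gene, to 15.3, 17.2 and 13 fragments (95% Poisson intervals, exact, 8.65 to 25.2, 10.1 to 27.5 and 6.92 to 22.2). For such a gene 3 fragments correspond to an FPKM of 0.196, 0.174 and 0.231. The mitochondrial genome took 26.6%, 14.4% and 20.9% of all FPKM in rats 12, 24-4 and 33. Of the markers of cortical glutamatergic neurons listed for the label of motor cortex, Tbr1, Neurod6, Bcl11b and Fezf2 were at 3.23 or more in every rat. The 6 markers of choroid plexus, a ventricular epithelium, were also present and uneven, with summed FPKM of 3324, 129 and 13115 in rats 12, 24-4 and 33.

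Rat 33 had the highest level of almost every interferon-induced gene, while the receptors and Janus kinases were at similar levels in the 3 rats. The median FPKM of the 50 members was 2.36 in rat 12, 3.94 in rat 24-4 and 13.4 in rat 33, against medians of 9.96, 9.81 and 10.8 over all rows tested. The members took 0.0707%, 0.111% and 0.233% of all FPKM in the same order. In bulk tissue, fewer cells of a type and less RNA per cell cannot be told apart.

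Rows with a mean FPKM of at least 1 were tested, which kept 48 of the 50 members. Oas2 and Isg20 were left out, with means of 0.701 and 0.803, and Zbp1, the member just inside, had a mean of 1.16. Zbp1, Ifih1, Oasl, Dtx3l and Ifi44l passed the filter only through rat 33. The filter thus favoured a high value there, and these genes are part of the counts for rat 33 below. Of the 48, 45 were highest in rat 33, where 42% of all 13754 rows tested were. The other 3 were all in the receptor and kinase group. Ifnar1 and Jak2 were highest in rat 12, as were 23.8% of all rows tested, and Ifngr2 was highest in rat 24-4, as were 34.2%. In FPKM + 1, 37 members were at least 2-fold higher in rat 33 than in rat 12 and 0 were at least 2-fold lower, where 8.91% and 4.22% of all rows tested were. At least 4-fold differences were found for 21 members, against 0.822% of all rows tested. Against rat 24-4, rat 33 was at least 2-fold higher for 33 members and at least 2-fold lower for 0, where the shares of all rows were 7.72% and 3.79%. Between rats 24-4 and 12 few members differed that much, with 5 higher and 0 lower in rat 24-4, where 2.48% and 3.26% of all rows were. The count of 5 was 11 with a pseudocount of 0.1 and 8 with 0.5 in place of 1. A smaller pseudocount widens the ratios of all low rows. The shares of all rows at those pseudocounts are not given, so whether this rise is particular to the members was not tested.

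**Figure D1:**
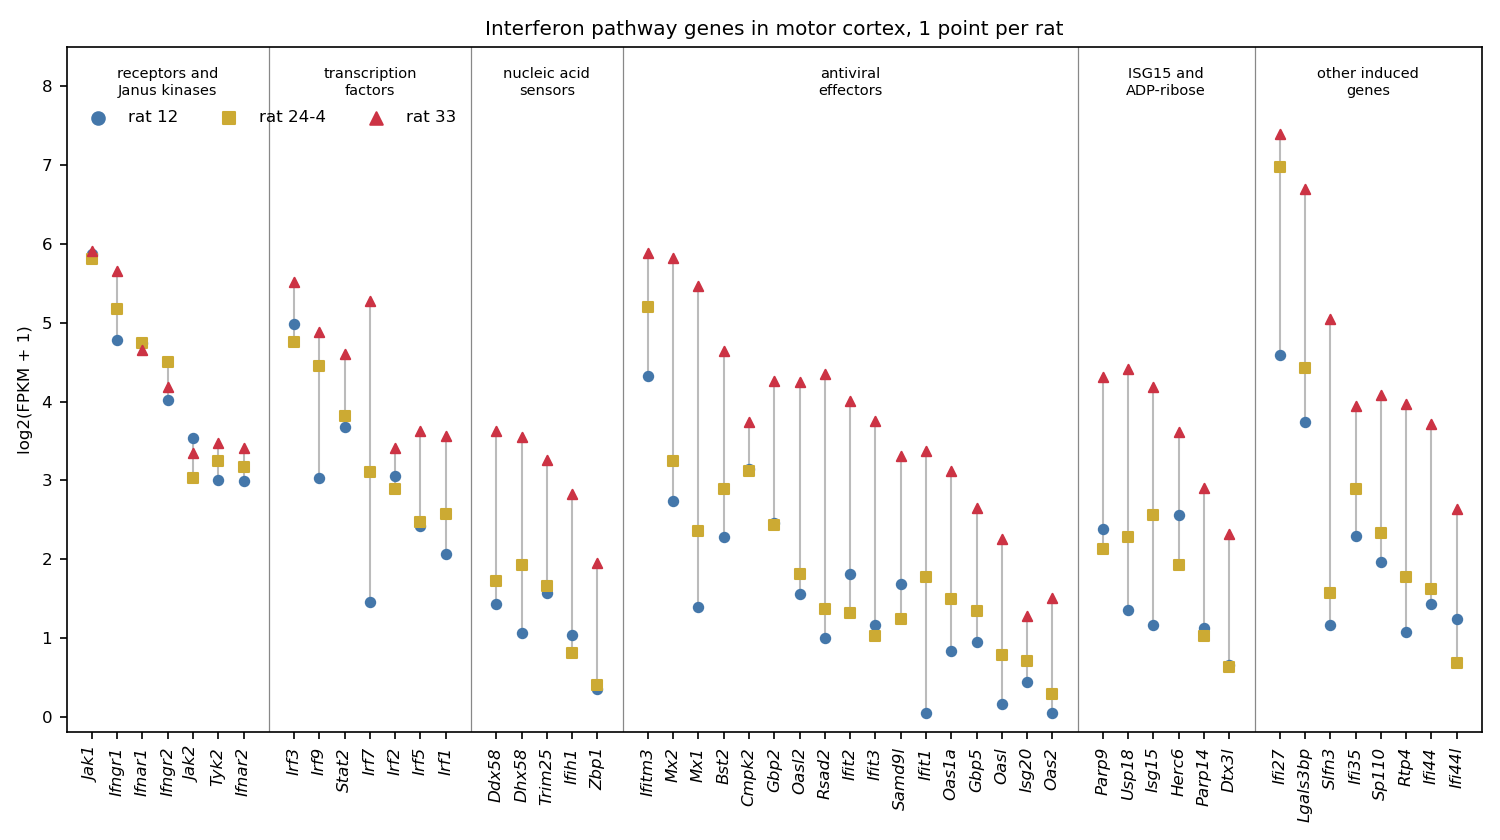
Level of each of the 50 matched interferon genes as log2(FPKM + 1) on the vertical axis, with 1 point per rat and a grey line from the lowest to the highest rat, in 6 groups by role and by falling mean within a group. The red triangles of rat 33 lie above the other points in all groups except receptors and Janus kinases, where the points of the rats lie close together.

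No member passed the test for variability between the rats. The test, made with limma on log2(FPKM + 1), asked whether a row varied more than rows of its level, with Benjamini-Hochberg adjustment over all rows tested. With an adjusted p threshold of 0.05 it called 0 of 48 members, and 0.102% of all rows (14 rows). Before adjustment, 35 of 48 members had a limma p below 0.05, against 5.96% of all rows tested. With the prior degrees of freedom that limma gives each row, the form run first, the counts were 0 members and 0 rows after adjustment. That form gave 28 members with a limma p below 0.05 before adjustment, against 631 of all 13754 rows tested. The lowest limma adjusted p-values were 0.0877 for Mx1, 0.0977 for Slfn3 and 0.124 for Irf7. When each library was scaled to the same median, 5 members passed (Irf7, Mx1, Mx2, Rsad2 and Slfn3), as did 0.393% of all rows then tested (54 rows). Without rat 12, 9 members passed (those 5 with Ifit2, Ifit3, Lgals3bp and Oasl2), as did 0.752% of all rows (104 rows). Without rat 33 Ifi27 was the only member to pass, with 0.475% of all rows (64 rows). The prior degrees of freedom were 7.96 in the main fit and 12.6 with the same median. They were 46 without rat 12 and infinite without rat 33, so these counts are not on equal terms with the main one. The members were proposed with the higher level of interferon genes in rat 33 already known, so the counts describe these animals and do not stand as independent evidence of that direction.

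The role groups differed in how far rat 33 stood from rat 12. The median difference of log2(FPKM + 1) over tested rows was 0.16 for receptors and Janus kinases (7 rows), 1.21 for transcription factors (7), 1.79 for nucleic acid sensors (5), 2.28 for antiviral effectors (15), 1.86 for ISG15 conjugation and ADP-ribosylation genes (6) and 2.54 for other induced genes (8). Over all rows tested it was 0.10. All 5 sensors, 14 of 15 effectors, all 6 conjugation genes and all 8 other induced genes were at least 2-fold higher in rat 33 than in rat 12. Among transcription factors 4 of 7 were, and among receptors and kinases 0 of 7, where 8.91% of all rows tested were. With 7 rows, a count of 0 is near that share. Of these members, Zbp1, Ifih1, Oasl, Dtx3l and Ifi44l reached a mean FPKM of 1 only through rat 33, so that the filter itself favoured a high value there.

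**Figure D2:**
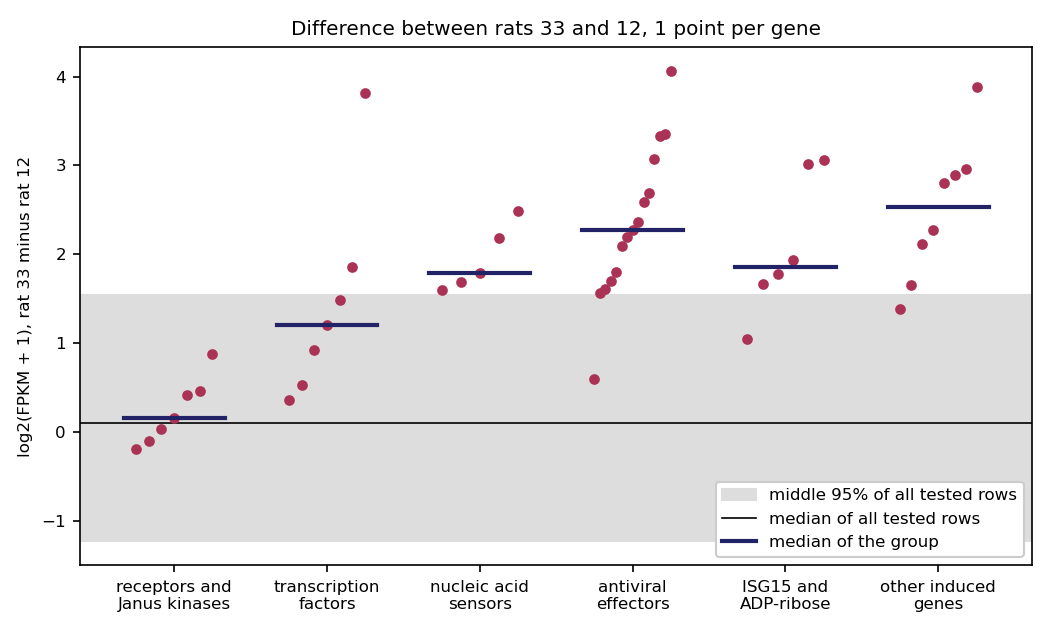
Difference of log2(FPKM + 1), rat 33 minus rat 12, for the 48 tested members in 6 groups by role, with 1 point per gene and a thick line at each group's median; the grey band holds the middle 95% of all tested rows and the thin line their median. Receptors and Janus kinases lie around the median of all rows, whereas all 5 sensors and 14 of 15 effectors lie above the band.

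The receptors of both interferon types were well expressed in each rat. Jak1, the kinase shared by both receptors, was the highest of the group, with FPKM of 57.5, 54.8 and 59.2 in rats 12, 24-4 and 33. Its values spanned 1.08-fold, and its limma p of 0.979 was the highest of the members. Ifngr1, the ligand-binding chain of the interferon gamma receptor, had 26.5, 35.1 and 49.6. It was the one member of the group that was ordered from rat 12 to rat 33 by more than 1.5-fold, with 1.84-fold in FPKM + 1 between the ends (limma adjusted p = 0.993).

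Its partner chain Ifngr2 had 15.2, 21.7 and 17.1, highest in rat 24-4. Ifnar1, the chain of the type I receptor that binds Tyk2, had 25.8, 25.7 and 24.2 and was thus nearly level across the rats. Ifnar2, the high-affinity chain of that receptor, had 6.94, 7.99 and 9.65. The kinases Jak2 and Tyk2 had 10.6, 7.14 and 9.19, and 7.02, 8.48 and 10.1, in the same order of rats. No row of this group spanned more than 1.87-fold in FPKM, and the median SD of its log2 values over the rats was 0.23, against 0.32 for all rows tested and 1.07 for the 48 members.

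Among transcription factors, Irf7 was the most uneven. Irf7, which amplifies type I interferon production and is itself induced by interferon, was at 1.75 in rat 12, 7.61 in rat 24-4 and 37.8 FPKM in rat 33. Each step between the rats was large, with 3.13-fold and 4.51-fold in FPKM + 1. The Irf7 locus (chromosome 1, 214248837 to 214252456, Rnor_6.0) overlaps Phrf1 on the other strand by 65 bp, and Phrf1 had 13.1, 14.5 and 13.1. Whether the counting used the strand is not given in the sources used here.

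Irf9, the DNA-binding part of ISGF3, had 7.13, 20.96 and 28.5, so that rat 24-4 was close to rat 33 and rat 12 was low. Stat2, its partner in ISGF3, had 11.8, 13.1 and 23.3, with rat 33 apart from the others. The lower-expressed factors Irf1 and Irf5 had 3.18, 4.95 and 10.8, and 4.35, 4.55 and 11.3. Irf1 is a target of the gamma-activated site, and Irf5 acts downstream of Toll-like receptors in myeloid cells. Both were at least 2-fold higher in FPKM + 1 in rat 33 than in rat 12, by 2.81-fold and 2.31-fold.

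Irf3 and Irf2 varied least in this group. Irf3, the constitutive factor that sensors activate directly, was the highest of the factors at 30.7, 26.0 and 44.9, and Irf2, an antagonist of Irf1, had 7.28, 6.38 and 9.64. In both, rat 24-4 was the lowest. Irf3 overlaps Bcl2l12 by 865 bp and Irf5 overlaps Tnpo3 by 521 bp, each on the other strand, so fragments of these pairs could not be told apart if strand was not used.

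Sensors of foreign nucleic acid were at low levels in rats 12 and 24-4 and several-fold higher in rat 33. Ddx58, which encodes the RNA sensor RIG-I, had an FPKM of 1.71, 2.29 and 11.3 in rats 12, 24-4 and 33. Dhx58, which encodes the related helicase LGP2, had 1.09, 2.80 and 10.7. Ifih1, which encodes MDA5, a sensor of long double-stranded RNA, had 1.05, 0.758 and 6.09. In all 3 of these genes rats 12 and 24-4 lay below 3 and rat 33 above 6. Trim25, a ubiquitin ligase of the RIG-I pathway, had 1.98, 2.14 and 8.59, and Zbp1, a sensor of Z-form nucleic acid that can trigger necroptosis, had 0.280, 0.320 and 2.87.

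The antiviral effectors included Mx1, the member with the largest difference between rats 33 and 12 in FPKM + 1. Mx1, a GTPase that traps viral nucleocapsids, was at 1.63 in rat 12, 4.13 in rat 24-4 and 43.1 FPKM in rat 33 (16.8-fold in FPKM + 1 between rats 33 and 12). Its neighbour in the family, Mx2, was higher in rat 12 but had the same order, with 5.70, 8.48 and 55.4 (8.42-fold, limma adjusted p = 0.180). Rsad2, which encodes viperin, an enzyme that makes a chain-terminating nucleotide, had 0.995, 1.58 and 19.4 (10.2-fold, limma adjusted p = 0.182). In these 3 genes rat 24-4 was much closer to rat 12 than to rat 33.

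IFIT1 binds viral RNA that lacks the host cap structure, and IFIT2 and IFIT3 are of the same family. Ifit2 had 2.502, 1.50 and 15.1, and Ifit3 had 1.25, 1.02 and 12.5, so for both rat 24-4 was the lowest. Ifit1 differed from them in having an intermediate value in rat 24-4, with 0.0315, 2.41 and 9.36. The value of Ifit1 in rat 12 lies under the FPKM that 3 fragments would give a gene of 1 kb, as do those of Oas2 and Oasl in that rat, so no ratio of FPKM is given for these.

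The oligoadenylate synthetases make the second messenger that activates RNase L. Oas1a had 0.784, 1.81 and 7.66, and Oas2 had 0.0337, 0.225 and 1.85. The related Oasl and Oasl2 had 0.118, 0.717 and 3.77, and 1.94, 2.496 and 18.0. All 4 rows had the order of rats 12, 24-4 and 33. How fragments shared with near-identical copies were divided is not given in the sources used here, which leaves the levels of the Oas1, Ifit, Mx, Slfn, Gbp and Ifitm families uncertain.

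Among the other effectors, Ifitm3, a membrane protein that blocks virus entry, was the most abundant, with 19.0, 35.7 and 58.0. Its steps from rat 12 to rat 24-4 and on to rat 33 were of similar size, with 1.84-fold and 1.61-fold steps in FPKM + 1. Bst2, which encodes tetherin, a protein that holds budding virions at the cell surface, had 3.84, 6.43 and 24.0. The guanylate-binding proteins Gbp2 and Gbp5, which interferon gamma induces, had 4.51, 4.39 and 18.2, and 0.922, 1.53 and 5.26. Samd9l, a restriction factor that limits translation, had 2.22, 1.36 and 8.87.

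On the log2(FPKM + 1) scale, Cmpk2 and Isg20 were the effectors with the smallest differences between rats 33 and 12. For Isg20 that scale shrinks the difference, since its FPKM spanned 3.98-fold. Cmpk2, a mitochondrial nucleotide kinase, had 7.82, 7.70 and 12.4 (limma adjusted p = 0.993), and Isg20, an exonuclease, had 0.356, 0.634 and 1.42. In rats 12 and 24-4, Cmpk2 was the second most abundant effector of all after Ifitm3 in rat 12 and the third after Ifitm3 and Mx2 in rat 24-4.

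ISG15 is a ubiquitin-like protein that is attached to other proteins during the response. Isg15 was at 1.24 in rat 12, 4.89 in rat 24-4 and 17.2 FPKM in rat 33 (8.12-fold in FPKM + 1 between rats 33 and 12). Usp18, which removes ISG15 and also dampens signalling at Ifnar2, had 1.56, 3.84 and 20.3 (8.32-fold). Herc6, the ligase that attaches ISG15 in rodents, had 4.90, 2.79 and 11.2. Isg15 and Usp18 thus had their middle value in rat 24-4, whereas Herc6 was lowest there.

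The ADP-ribosyltransferase genes Parp9 and Parp14 had 4.21, 3.36 and 18.9, and 1.18, 1.03 and 6.49. Dtx3l, which encodes the ubiquitin ligase that partners with PARP9, had 0.569, 0.554 and 3.98. These 3 genes were at similar levels in rats 12 and 24-4 and at least 3-fold higher in FPKM + 1 in rat 33 than in either.

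The group of other induced genes held the most abundant member, Ifi27, a small membrane protein gene with 23.1, 125 and 167. Its main step was between rats 12 and 24-4 (5.23-fold in FPKM + 1), with 1.33-fold from rat 24-4 to rat 33. Lgals3bp, which encodes a secreted galectin-binding glycoprotein, had 12.3, 20.6 and 103, and Slfn3, a schlafen family gene, had 1.25, 1.96 and 32.0. Those 2 genes had the opposite distribution, with the main step at rat 33. Slfn3 overlaps another row on the other strand by 673 bp, and that row was at 0.256, 0.0569 and 0.0755.

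Rtp4, a chaperone gene for membrane receptors, had 1.11, 2.40 and 14.7. Sp110, a nuclear body gene, had 2.88, 4.05 and 15.9, and Ifi35, whose product pairs with that of Nmi, had 3.89, 6.38 and 14.4. Ifi44 and Ifi44l had 1.71, 2.08 and 12.1, and 1.37, 0.609 and 5.19. All of these rows were highest in rat 33, and Ifi44l was the only one of this group with its lowest value in rat 24-4. A row spelled XAF1, which the rule of exact names leaves out, had 5.41, 9.34 and 18.2.

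The place of rat 24-4 in the order varied between members. Of the 48 tested members, 31 had the order of rats 12, 24-4 and 33, which 21.3% of all rows tested had, and 14 had the order of rats 24-4, 12 and 33, which 20.7% had. The 5 members at least 2-fold higher in FPKM + 1 in rat 24-4 than in rat 12 were Irf7, Irf9, Isg15, Ifit1 and Ifi27. The 14 with the order of rats 24-4, 12 and 33 were the PARP set (Parp9, Parp14 and Dtx3l), Herc6, Ifih1, Ifit2, Ifit3, Ifi44l, Samd9l, Gbp2, Cmpk2, Irf2, Irf3 and Jak1. Jak2 was also lowest in rat 24-4, which makes 15 such members. The median difference of log2(FPKM + 1) between rats 24-4 and 12 was 0.27 over the 48 members and 0.07 over all rows tested.

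**Figure D3:**
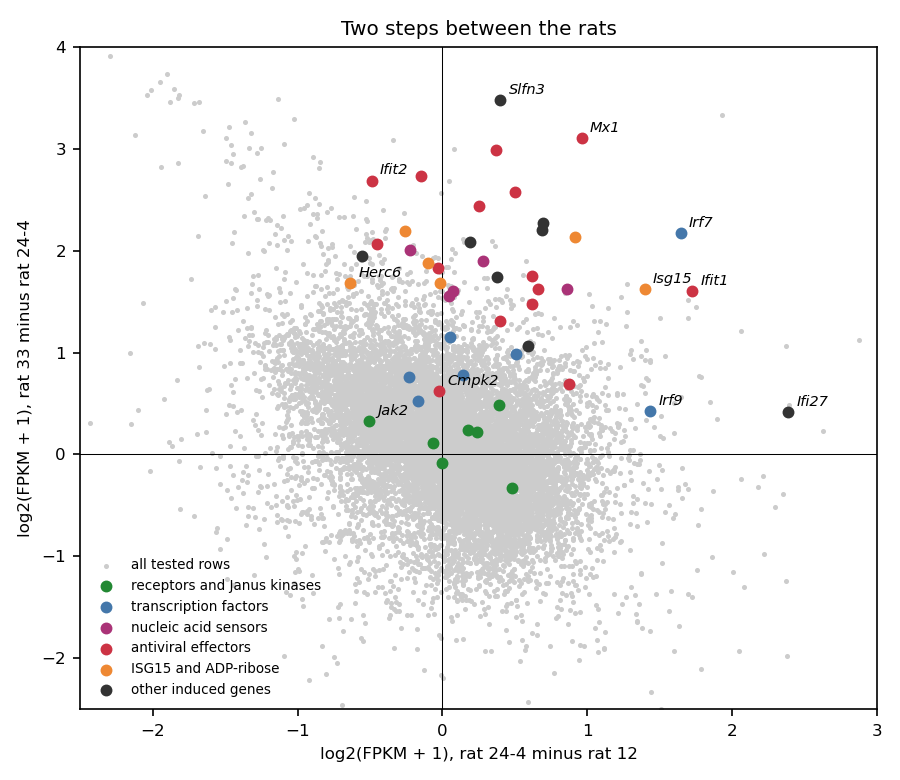
Difference of log2(FPKM + 1) between rats 24-4 and 12 on the horizontal axis and between rats 33 and 24-4 on the vertical axis, with coloured points for the 48 tested members by role and grey points for all tested rows (37 rows lie outside the axes). Most induced genes lie high and near the vertical line, while Ifi27 and Irf9 lie to the right and low, and receptors and Janus kinases lie near the origin.

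Several members lie side by side in the genome, and neighbours did not always vary alike. Parp9 and Dtx3l are divergent genes on chromosome 11 (67724076 to 67767622 for both, Rnor_6.0) with 1128 bp between them, and they were 3.82-fold and 3.17-fold higher in FPKM + 1 in rat 33 than in rat 12. Ifit2 and Ifit3 on chromosome 1 lie 5507 bp apart and were 4.60-fold and 6.0004-fold higher on that scale. Oasl and Oasl2 on chromosome 12 lie 12703 bp apart. Oasl2 was 6.46-fold higher in FPKM + 1, and both were highest in rat 33, with no fold given for Oasl because of its low value in rat 12.

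Rsad2 and Cmpk2 are divergent neighbours on chromosome 6 (45655954 to 45694822) with 14085 bp and no other row between them. In FPKM + 1, Rsad2 was 10.2-fold higher in rat 33 than in rat 12 and Cmpk2 1.52-fold higher. The receptor genes Ifnar2, Ifnar1 and Ifngr2 lie in a row on chromosome 11, with gaps of 81555 bp and 30277 bp. On the same scale they were at 1.34-fold, 0.939-fold and 1.12-fold. All 10 member pairs within 100 kb of each other were from the IFIT, interferon receptor, Parp9 and Dtx3l, OASL, guanylate-binding, Ifi44 and Rsad2 loci.

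Promoter sequences are shown because many of the induced genes carry the element that ISGF3 and IRF proteins bind. RefSeq promoter windows of assembly GRCr8, from 250 bases before to 50 after the gene start, were matched by symbol for 36 of the 50 members. Those without a window were Jak1, Tyk2, Irf2, Isg15, Ifit1, Ifit2, Ddx58, Dhx58, Mx2, Oas2, Usp18, Rtp4, Samd9l and Zbp1. The core of the ISRE was searched as GAAANNGAAA on both strands (TTTCNNTTTC when read on the other), and overlapping matches were counted as present once per window. It was found in 18 of the 36 members (50%), against 3.92% of all 33469 windows of that length. By role these were 0 of 5 receptors and kinases, 1 of 6 transcription factors, 1 of 2 sensors, 9 of 12 effectors, 2 of 4 conjugation genes and 5 of 7 other induced genes. The stretches below, picked among the members with a match after their values were seen, run 5′ to 3′ in the direction of the gene, end before its start, and carry the matched letters in capitals.
Irf7: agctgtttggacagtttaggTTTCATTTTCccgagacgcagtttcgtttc
Rsad2: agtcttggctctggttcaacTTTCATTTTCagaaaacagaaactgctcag
Ifit3: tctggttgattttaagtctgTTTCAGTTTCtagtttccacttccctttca
Oasl2: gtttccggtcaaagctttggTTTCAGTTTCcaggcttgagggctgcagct
Oas1a: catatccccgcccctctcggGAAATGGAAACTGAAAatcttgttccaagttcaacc
Bst2: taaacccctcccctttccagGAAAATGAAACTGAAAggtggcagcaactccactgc
Lgals3bp: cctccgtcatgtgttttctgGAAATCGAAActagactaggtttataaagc
Ifi44: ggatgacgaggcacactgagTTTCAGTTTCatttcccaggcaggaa

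The stretches lie at chr1:205800063-205800112 (minus strand) for Irf7, chr6:48788238-48788287 (minus) for Rsad2, chr1:241527262-241527311 (plus) for Ifit3 and chr12:47383307-47383356 (minus) for Oasl2. Those of Oas1a, Bst2, Lgals3bp and Ifi44 lie at chr12:41330405-41330460 (plus), chr16:18255063-18255118 (minus), chr10:104127869-104127918 (minus) and chr2:243303841-243303886 (minus). Coordinates in this and the next paragraph are on GRCr8 and differ from those of the expression tables. The matches of Oas1a and Bst2 are pairs that share 4 bases, which gives a run of GAAA repeats. The first matched base lies 26 to 151 bases before the start in these 8 genes. Ifit3, Oasl2 and Ifi44 share the same matched letters, and so do Irf7 and Rsad2.

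The tested members with an ISRE match had the larger differences between rats 33 and 12, with overlap. Their median was 4.84-fold in FPKM + 1 (17 genes, 2.61-fold to 14.1-fold), and that of members whose window had no match was 2.18-fold (18 genes, 0.880-fold to 16.8-fold). Mx1 and Slfn3, the 2 members with the largest differences of all, were among those with no match in the window. The receptors and kinases with a window were all among the genes with no match, so the 2 sets also differ in role. Members without a window, among them Jak1, Tyk2, Isg15, Ifit1, Mx2 and Usp18, are in neither set. A match is a description of the letters and was not tested as a binding site.

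**Figure D4:**
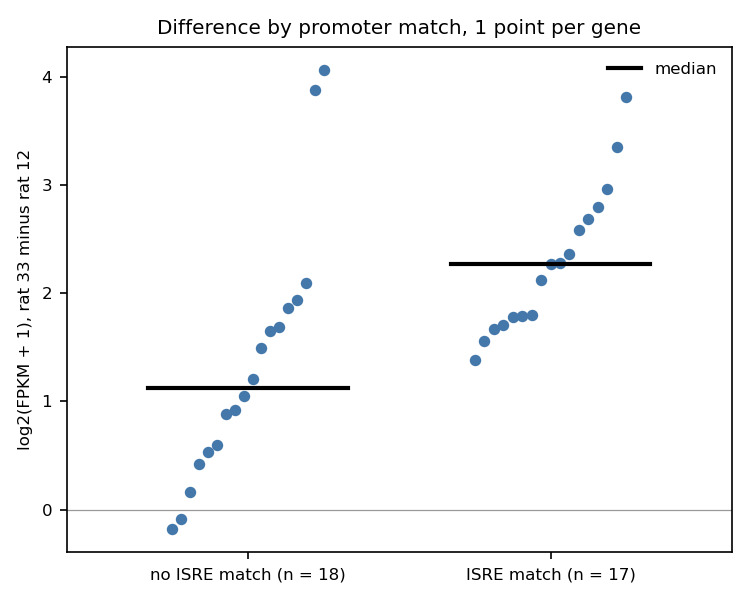
Difference of log2(FPKM + 1), rat 33 minus rat 12, for tested members whose RefSeq promoter window has no ISRE match (left, 18 genes) or has one (right, 17 genes), with 1 point per gene and a line at the median. All genes with a match lie above 1, and the genes without one reach from below 0 to the highest point, Mx1.

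The gamma-activated site was searched as TTCNNNGAA, which reads the same on both strands. It was found in 9 of the 36 members (25%) and in 8.87% of all windows. Those of Irf1 and Irf9 are shown because these are the transcription factors among the members that carry it. The stretches lie at chr10:38417773-38417821 (plus strand) and chr15:33065717-33065765 (plus), with the matched letters in capitals.
Irf1: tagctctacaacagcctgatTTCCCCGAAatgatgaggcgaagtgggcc
Irf9: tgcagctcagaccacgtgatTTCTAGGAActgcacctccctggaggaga

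Members with and without a GAS match differed little in their median, with 3.44-fold for 9 genes and 3.35-fold for 26 genes in FPKM + 1 between rats 33 and 12. Bst2, Oas1a, Parp14, Ifitm3 and Ifi44l had both elements. In Bst2 they overlap, and in Parp14 and Ifitm3 they lie within a few bases of each other. In Oas1a the GAS match begins 199 bases before the start and the ISRE matches 41 and 35. In Ifi44l these are 247 for GAS and 91 and 59 for ISRE.

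Other genes of the pathway, from a list of 56 names of which 54 were matched to 55 rows, are given beside the shares of all rows tested. The interferon genes Ifnb1, Ifng and Ifnk were listed at 0 in all rats, and Ifne was listed at 0, 0 and 0.135. An FPKM listed at 0 can be a failed estimate as well as a low level. Of 41 tested rows, 35 were highest in rat 33, against 42% of all rows. In FPKM + 1, 24 were at least 2-fold higher in rat 33 than in rat 12 and 0 were at least 2-fold lower, against 8.91% and 4.22% of all rows. The limma test with adjustment called 0 of the 41, against 0.102% of all rows, and 14 were below 0.05 before adjustment, against 5.96%. The median difference between rats 33 and 12 was 1.15 on the log2(FPKM + 1) scale.

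The 4 most abundant of these were Adar, Stat3, Ifitm2 and Irf8. Adar, an RNA-editing enzyme with an interferon-induced isoform, had 42.8, 48.9 and 39.8 and so was lowest in rat 33. Stat3 had 19.96, 23.0 and 27.2, and Ifitm2 had 13.3, 21.2 and 26.9. Irf8, a factor that microglia need, had 4.36, 10.7 and 27.5.

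Summed markers of glia were also higher in rat 33, and summed markers of neurons were lower. The summed FPKM of 8 microglial markers was 162, 248 and 419 in rats 12, 24-4 and 33, and all 8 had that order. The 8 markers of activated microglia and macrophages summed to 59.7, 125 and 305, the 5 matched markers of reactive astrocytes to 336, 1077 and 1995, and the 6 of oligodendrocytes to 5156, 6638 and 11807. Neuronal markers (6 genes) summed to 2182, 1513 and 1122. That sum leaned on Snap25, with 1178, 379 and 440 in rats 12, 24-4 and 33. Slc17a7 was highest in rat 24-4, with 421, 709 and 367, while Syt1, Gad1, Gad2 and Rbfox3 fell at each step. The 5 markers of cortical glutamatergic neurons summed to 112, 124 and 70.1, highest in rat 24-4. The part of these glial and neuronal lists in the levels of the interferon genes was not tested.

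The step from rat 12 to rat 24-4 varied among the marker lists and among the interferon groups, with overlapping ranges. From rat 12 to rat 24-4 the median difference of log2(FPKM + 1) was 1.75 for activated microglia and macrophages, 1.14 for reactive astrocytes, 0.64 for microglia, 0.47 for oligodendrocytes and 0.27 for astrocytes. It was 0.50 for other induced genes, 0.40 for antiviral effectors, 0.14 for transcription factors, 0.08 for sensors and -0.06 for conjugation genes. From rat 12 to rat 33 it was 2.54, 2.58, 1.39, 1.19 and 1.18 for the same marker lists in that order, beside the values of the interferon groups given above. Meningeal and fibroblast markers had a median difference of 0.08 from rat 12 to rat 24-4 and 1.87 from rat 12 to rat 33. For endothelium these were 0.09 and 0.65, so a small first step of the median was not particular to the interferon groups. Sums differed from medians here. The endothelial sum was highest in rat 24-4, with 58.3, 85.5 and 78.2 in rats 12, 24-4 and 33. The astrocyte sum rose at both steps, with 849.7, 1173 and 1375. Whether the lists differ in the first step was not tested. Markers of white blood cells were low, with summed FPKM of 1.19, 6.26 and 4.35 for 9 lymphocyte genes and 0.789, 0.422 and 1.05 for 5 neutrophil and monocyte genes, of which Elane and Mpo were listed at 0 in every rat. In rat 24-4 most of the lymphocyte sum came from Cd3e at 4.81. Markers of red blood cells (2 matched genes) summed to 119, 16.1 and 72.8, highest in rat 12 and lowest in rat 24-4, and their part in the results was not tested.

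Choroid plexus markers, with the sums given above, were lowest in rat 24-4 and highest in rat 33. Of the 48 tested members 14 had that order, as did 20.7% of all rows tested. Meningeal and fibroblast markers (Col1a1, Dcn and Lum, with Col1a2 listed at 0) summed to 18.8, 19.4 and 63.97 in rats 12, 24-4 and 33. Their part in the levels of rat 33 was not tested either.

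**Figure D5:**
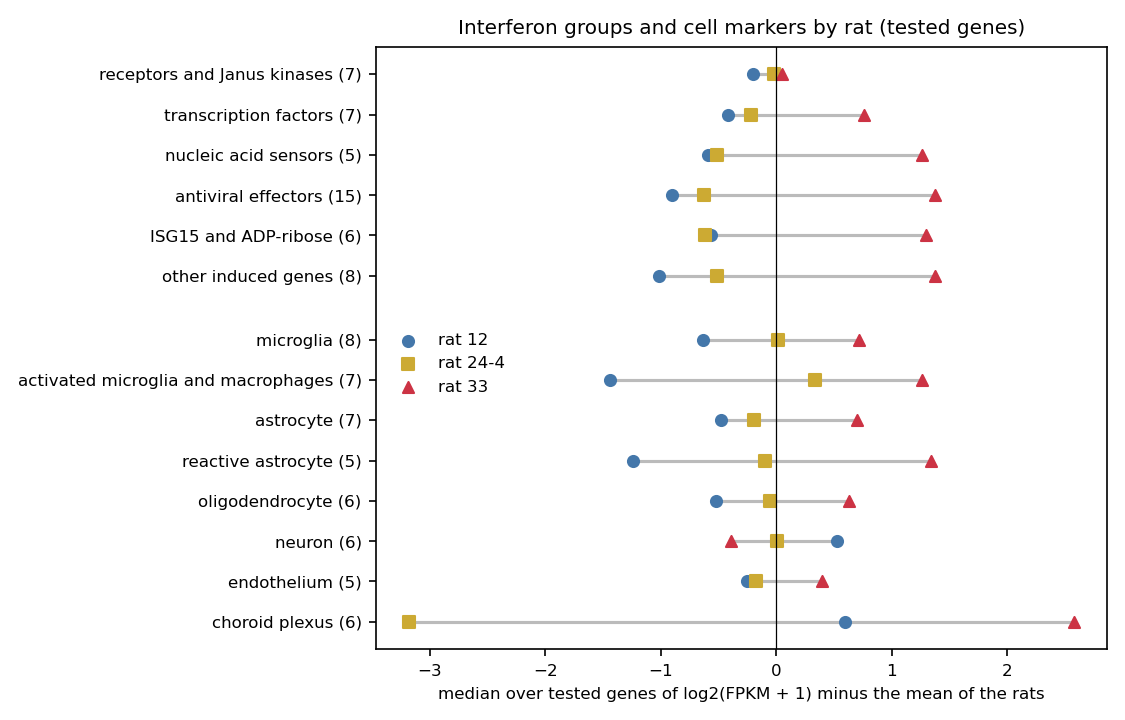
Median over tested genes of log2(FPKM + 1) minus the mean of the rats on the horizontal axis, for the 6 interferon groups (top) and 8 lists of cell markers (bottom), with 1 point per rat and the number of tested genes in brackets. Sensors, effectors and conjugation genes have rats 12 and 24-4 close together and rat 33 apart, as do the astrocyte and endothelium lists. The microglial, oligodendrocyte and reactive astrocyte lists have rat 24-4 near the middle. Meningeal and fibroblast markers are not drawn.

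Within rats, the median of receptors and Janus kinases lay above that of the induced groups, by less in rat 33. Receptors were set against each other role after the values were seen. The median log2(FPKM + 1) was 4.24 ± 0.25 (SD, n = 3 rats) for receptors and kinases, 3.58 ± 0.89 for transcription factors, 1.99 ± 1.14 for sensors, 2.21 ± 1.33 for effectors, 2.39 ± 1.36 for conjugation genes and 2.59 ± 1.25 for other induced genes. Receptors and kinases exceeded effectors by 2.63, 3.01 and 0.43 in rats 12, 24-4 and 33, and sensors by 2.96, 2.85 and 0.92. They exceeded conjugation genes by 2.76, 2.48 and 0.28 and other induced genes by 2.33, 2.45 and 0.16. Against transcription factors the difference was 0.998, 1.40 and -0.42, so its sign was not shared. The exact sign-flip test, two-sided, gave p = 0.25 for the first 4 comparisons and p = 0.5 for the last (Benjamini-Hochberg over 5 comparisons, 0.313 and 0.5), and with 3 rats it cannot go below 0.25.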

How the data were processed

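Messenger RNA of motor cortex was sequenced in 3 rats of 1 group. The deposited values are FPKM, which the authors derived from normalized fragment numbers with a Perl script, per the series' design text. The submitters' processing notes list HISAT2 2.0.4, StringTie 1.3.0 and the build Rnor_6.0 without their roles. How values were normalized, and whether strand was used, is not given in the sources used here.

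The analysis used log2(FPKM + 1), a scale that shrinks differences of low genes, for the 13754 rows with a mean FPKM of at least 1. With limma 3.58.1 (R 4.3.3) an intercept was fitted per row with a trended, robust prior. The residual variance over the prior variance was compared with the F distribution (one-sided, prior degrees of freedom of the bulk of rows, 7.96), with Benjamini-Hochberg adjustment over all rows and a threshold of 0.05. P-values measure the spread between these rats. The test was first run with the prior degrees of freedom that the robust fit gives each row. That form recovered 0% of the simulated rows at every fold and called 0 of the 13754 rows. The form used here was settled after that output, real and simulated, was seen, and the first form is kept as an alternative. Tested on simulated data for this comparison on 13754 rows, with 1 rat shifted, the form used recovered 0% of rows shifted 4-fold in FPKM + 1, 76% of those shifted 16-fold and 100% of those shifted 64-fold or 256-fold.

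For the depth estimate, loci up to 400 bp long were used. Of 657, 636 and 673 low values in rats 12, 24-4 and 33, 92.8%, 93.2% and 93.0% came out as whole fragments within a tolerance of 0.02. Whether they equal the raw library sizes was not tested. Intervals and floors cover counting error only. No pair of files shared a value above 0. Tables and exact tests were made with pandas 2.3.3, numpy 2.4.6 and scipy 1.17.1 under Python 3.11.15, and plots with matplotlib 3.10.9.

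The members, the role groups, the marker and pathway lists, the tests and the alternatives were chosen with earlier results of these data known. The role pairs, the motif letters, the promoter stretches printed, the genes labelled in a figure, and the row XAF1 were chosen after the files were seen. Protein sequences, which the plan included, are not used here. Some items are not reported here. All 3 values are given for the highest genes of each role and for those with the lowest and highest p, and in the end for every member. The names Oas1b and Phf11 of the pathway list and Serpina3n, Pecam1 and Hba-a1 of the marker lists had no row. The endothelial list (5 matched genes) summed to 58.3, 85.5 and 78.2 and the astrocyte list (7) to 849.7, 1173 and 1375 FPKM in rats 12, 24-4 and 33.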

Additional observations from a re-analysis of the deposited data

How the results depend on the processing

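Alternatives changed 1 choice at a time, and 154 of 162 recomputed values were counted as kept. A count had to stay within 1.5 times, and a level within its spread over rats. A median deviation had to keep its sign and stay within the spread of the deviations. Role differences were judged by their sign alone, whatever their size. The setting of 1 row per name could not move any member value, since each matched member stands in a single row. The number of members called variable was 0 with each of 6 settings (pseudocounts of 0.1 and 0.5, a mean FPKM of at least 0.1, the mitochondrial genome left out, 1 row per name, a prior that is not robust) and with a prior without trend. It was also 0 with the prior degrees of freedom of each row, an alternative recorded after seeing the data, which called 0 of all rows and gave 28 members and 631 of all rows below 0.05 before adjustment, against 35 and 820. It was 5 with libraries scaled to the same median (54 of all 13743 rows called). Without a filter on low values it was 25, with 2103 of all 30957 rows called, in a fit where 11974 rows at 0 in all rats enter the prior. With 1 rat left out it ranged from 0 to 9 (0 without rat 24-4, 1 without rat 33 and 9 without rat 12, where 0, 64 and 104 of all rows were called), with a prior estimated anew each time. The count of members at least 2-fold higher in rat 24-4 than in rat 12 was 5, and 11 and 8 with pseudocounts of 0.1 and 0.5. For those pseudocounts the shares of all rows are not given. The level of receptors and kinases was 4.24, and 4.555 after mitochondrial rows were removed and libraries rescaled, which raises every other row by construction. The median deviation of the members from the mean of the rats was -0.68, -0.37 and 1.20 in rats 12, 24-4 and 33. For rat 24-4 it ranged from -0.81 to 0.19 with another rat left out, and the positive value was without rat 33, when only rat 12 is left to compare with. The number of members highest in rat 33 was 44 to 47 over the scaling and filter alternatives, of 48 to 50 tested. No paired analysis was possible because there is 1 group. At these depths, levels near an FPKM of 0.2 rest on a few fragments in genes of 1 kb.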
